A study of Mus musculus with 4 samples.

Results

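The genes described here are 40 genes of mitosis and of the G2/M phase of the cell cycle: the mitotic cyclins and kinases, the chromosomal passenger complex, kinetochore and checkpoint genes, spindle motors, condensin subunits and genes of cytokinesis. They were chosen by symbol from the 24537 genes of the deposited expression table, with a floor of 1 FPKM for the average of the 4 libraries (FPKM counts fragments per kilobase of exon, scaled to the size of the library, so that levels can be compared between genes). All 40 reached that floor, so none lay just outside it; the lowest, Anln, had a mean of 2.25 FPKM. The libraries came from CD8+ T cells that had entered B16-GP33 tumours, sampled on day 21 in every case. B16 cells are a mouse melanoma line, here with GP33, a viral peptide that CD8+ T cells can recognise. One group of 2 libraries carries the genotype label EV and served as the control, and the other 2 carry the genotype label ACSS2NLS. The enzyme ACSS2 turns acetate into acetyl-CoA, the donor for histone acetylation, and the letters NLS usually stand for a nuclear localisation signal. No group held ACSS2 without the signal, so its amount and its place in the cell cannot be told apart, and strain, age, the vector and whether cells of several mice were pooled are not given in the sources used here.

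A cell that has copied its DNA enters mitosis when cyclin A and cyclin B activate the kinase CDK1. The kinases PLK1, Aurora A and Aurora B then build the spindle and attach the chromosomes at their kinetochores, while condensin compacts the chromosomes. The spindle checkpoint holds the anaphase-promoting complex until all chromosomes are attached, after which CDC20 and UBE2C help it to destroy cyclin B and the cell divides. The transcripts of these genes are low in resting T cells and rise together late in the cycle, which is why MKI67 and TOP2A serve as markers of dividing cells. In chronic infection and tumours, part of the exhausted CD8+ T cell pool still divides.

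Genes of this kind share short promoter elements, which are shown here because the choice of the 40 genes made no use of them. The cell cycle homology region, with the letters TTTGAA, is bound by the MuvB complexes that repress these genes in resting cells and activate them in G2, and the CCAAT box is bound by NF-Y. Promoters were taken from RefSeq sequences on GRCm38.p6, the assembly of the deposited mm10 coordinates, from 250 bases before to 50 bases after the start site. Of the 40 genes, 31 had an entry within 100 bases of the deposited start; Aurkb, Ccna2, Foxm1, Incenp, Kif20a, Kif2c, Mad2l1, Smc4 and Tpx2 did not. The letters TTTGAA, on either strand, stood in 23 of the 31 windows (74.2%), against 849 of 7089 windows of the same length (12%) over all genes above the same floor. The letters CCAAT, on either strand, stood in 25 of the 31 (80.6%) against 39.2% of all, and both motifs in 21 (67.7%) against 5.09%. Of the 30 TTTGAA matches, 22 began within 40 bases of the start site, whereas 58 of the 60 CCAAT matches began before it. A match is a description of letters and not a measured binding site.

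The 6 windows below belong to the most highly expressed genes among the 23 with TTTGAA. Each runs 5′ to 3′ on the strand of the gene, from 200 bases before to 30 bases after the start, and capitals mark every TTTGAA and CCAAT on either strand (TTCAAA and ATTGG on the opposite one). Where a CCAAT lies beside or across another motif, as in Cdca8 and Ube2c, the capitals run together. Their positions on GRCm38.p6 are chr5:30666686-30666915 (plus strand) for Cenpa, chr2:164769729-164769958 (plus) for Ube2c, chr9:70421525-70421754 (minus) for Ccnb2, chr4:124936888-124937117 (minus) for Cdca8, chr11:99024160-99024389 (minus) for Top2a and chr4:118437314-118437543 (minus) for Cdc20.
Cenpa: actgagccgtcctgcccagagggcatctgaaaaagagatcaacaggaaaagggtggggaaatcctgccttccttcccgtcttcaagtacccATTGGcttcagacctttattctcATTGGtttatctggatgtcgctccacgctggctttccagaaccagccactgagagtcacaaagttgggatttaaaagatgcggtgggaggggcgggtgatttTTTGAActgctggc
Ube2c: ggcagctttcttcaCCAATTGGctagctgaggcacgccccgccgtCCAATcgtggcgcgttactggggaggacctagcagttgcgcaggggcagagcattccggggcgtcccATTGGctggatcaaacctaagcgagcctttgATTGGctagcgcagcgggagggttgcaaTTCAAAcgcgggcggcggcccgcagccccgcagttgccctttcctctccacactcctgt
Ccnb2: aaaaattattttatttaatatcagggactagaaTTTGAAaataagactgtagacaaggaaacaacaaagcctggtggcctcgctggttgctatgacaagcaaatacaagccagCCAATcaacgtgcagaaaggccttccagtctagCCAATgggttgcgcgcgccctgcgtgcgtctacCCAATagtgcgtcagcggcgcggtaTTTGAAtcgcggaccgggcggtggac
Cdca8: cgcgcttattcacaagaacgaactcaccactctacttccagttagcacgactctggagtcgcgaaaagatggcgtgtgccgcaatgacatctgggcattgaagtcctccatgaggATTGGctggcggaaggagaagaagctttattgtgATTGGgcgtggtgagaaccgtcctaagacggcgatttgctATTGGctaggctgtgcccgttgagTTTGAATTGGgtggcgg
Top2a: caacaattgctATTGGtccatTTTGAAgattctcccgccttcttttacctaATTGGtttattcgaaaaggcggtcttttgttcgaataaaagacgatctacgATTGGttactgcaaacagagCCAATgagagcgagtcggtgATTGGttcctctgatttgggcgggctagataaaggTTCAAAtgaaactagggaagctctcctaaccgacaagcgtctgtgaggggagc
Cdc20: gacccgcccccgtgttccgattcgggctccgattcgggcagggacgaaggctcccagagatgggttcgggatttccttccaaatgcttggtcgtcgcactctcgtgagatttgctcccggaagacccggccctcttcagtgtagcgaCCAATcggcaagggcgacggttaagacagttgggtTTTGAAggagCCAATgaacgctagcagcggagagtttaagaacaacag

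**Figure D1:**
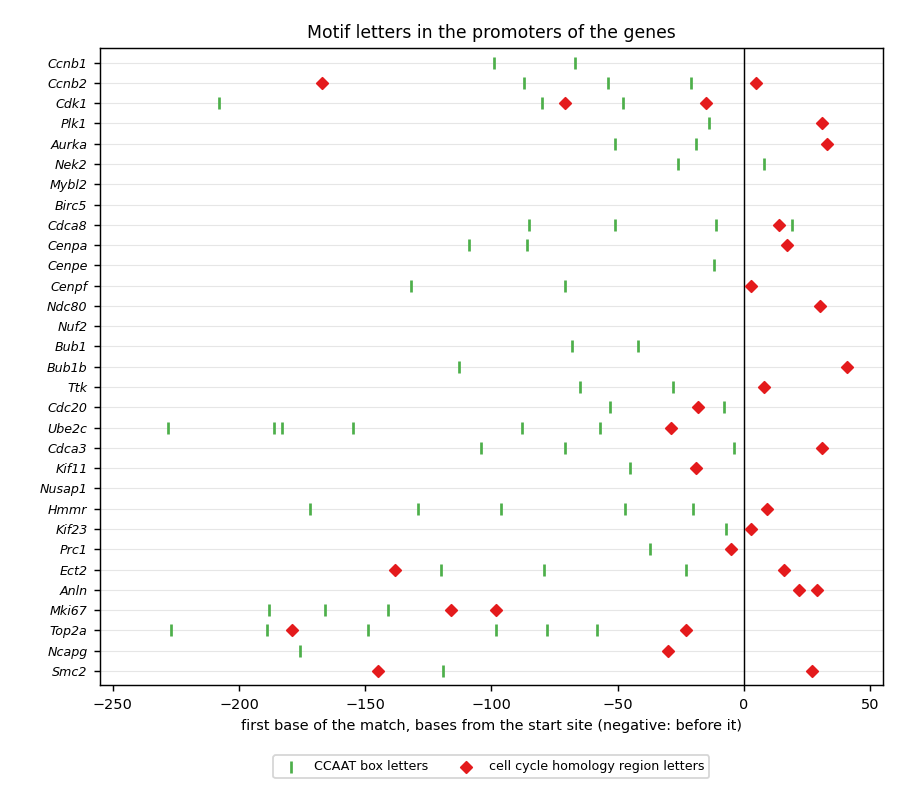
Position of the TTTGAA letters of the cell cycle homology region (diamonds) and of the CCAAT letters (ticks) in 31 promoters, 1 row per gene; the x axis gives the first base of each match in bases from the start site. Most diamonds lie close to the start site and nearly all ticks lie before it.

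Ccnb2, the cyclin B2 gene, has 1 TTTGAA far before its start site, 1 just after it and 3 CCAAT matches between them. Top2a has 2 matches to TTTGAA, both before its start, and 6 to CCAAT. Genes with and without TTTGAA had changes of similar size between the groups described below. The 23 genes with TTTGAA had a median log2 change of -0.19 and 20 of them a lower mean in ACSS2NLS, while the 8 without it had a median of -0.25 and 7 with a lower mean. Over all genes above the same floor 46.8% had a lower mean. The difference between genes with and without TTTGAA was not tested.

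The libraries were deep for these genes. Rounded total tags ranged from 46000000 to 49300000 per library. The gene with the fewest tags in a library had 435, a counting error of 4.79%, and the one with the most had 12830, an error of 0.883%. These errors cover counting only, since reads copied by PCR are not independent molecules. Acss2, the gene named in the group label, had 3.66 and 3.92 FPKM in EV against 80.7 and 86.3 FPKM in ACSS2NLS, 22 times as much. Of 9810 genes tested, 2 passed in the higher direction (0.0204%), Acss2 and Acss2os, the gene on its opposite strand, which was named after its values were seen and may share reads with it. In the lower direction 0 genes passed (0%), by limma-trend with a Benjamini-Hochberg adjusted p under 0.05, and 282 were lower at an unadjusted p under 0.05.

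The mitotic genes were well expressed in all 4 libraries. Their median level was 17.5 FPKM, against 7.43 FPKM over the 9810 genes tested, and 35 of the 40 lay above that value. Cenpa, which encodes the histone H3 variant that marks centromeres, had the highest level, from 89.2 to 115 FPKM over the 4 libraries. By mean it was followed by Birc5 (survivin) at 74.8 FPKM, Ube2c at 61.6 FPKM and Ccnb2 at 53.3 FPKM. The proliferation marker Mki67 was at 11.2 FPKM, and Ttk, Cenpf and Anln were lowest at 4.96, 4.32 and 2.25 FPKM. Per kilobase, the highest gene was 44.5 times the lowest. Between neighbours in this order the ranges over the 4 libraries overlapped for 37 of 39 pairs, so most adjacent ranks were not separated. The exceptions were Cenpe above Ttk and Cenpf above Anln.

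**Figure D2:**
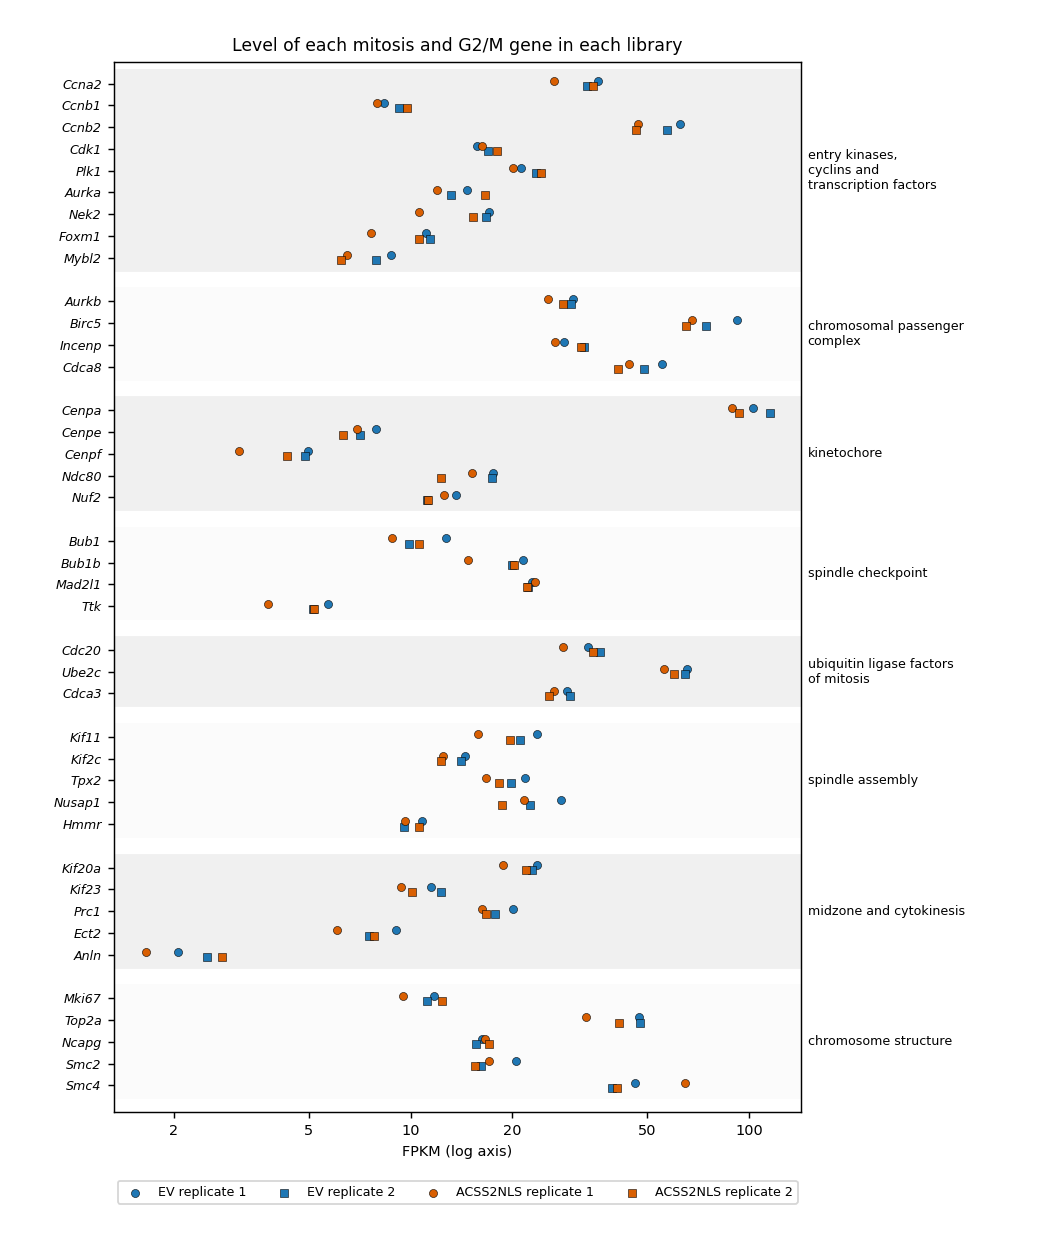
Level of the 40 genes in FPKM (log axis) in EV (blue) and ACSS2NLS (orange), replicate 1 as circles and replicate 2 as squares, in groups by role. Orange circles, ACSS2NLS replicate 1, are the leftmost points in 24 of the 40 rows.

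Comparing ACSS2NLS with EV asked whether the mitotic programme differed between T cells of the 2 genotypes. The mean was lower in ACSS2NLS for 34 genes and higher for 6 (Ccnb1, Cdk1, Aurka, Mad2l1, Ncapg and Smc4), where 46.8% of all genes tested had a lower mean. In 21 genes both ACSS2NLS libraries lay below both EV libraries, against a background of 18.1% of all genes, and in 1 gene both lay above, against 19.3%. With each library centred on its median over all genes, 37 of the 40 were lower in mean, against 53.2% of all genes. Ccnb1, Aurka and Mad2l1 turned to slightly below 0 there. Under quantile normalization Ccnb1 turned below 0 and Plk1 above it. The differences were small. The median log2 change (ACSS2NLS minus EV on log2(FPKM + 1)) was -0.19, with a range from -0.38 to 0.27, against a median of 0.02 over all genes, and 0 genes differed by more than 1.5-fold in mean FPKM. Summed over the 40 genes the level was 1050 and 998 FPKM in EV against 877 and 919 FPKM in ACSS2NLS, a ratio of 0.879.

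No gene of the 40 passed the test, with a smallest adjusted p of 0.81. At an unadjusted p under 0.05, 3 were lower (2.87% of all genes were) and 0 were higher (3.1% of all genes were). The 3 were Ccnb2, Mybl2 and Top2a. Leaving out each library in turn, the log2 change of Ccnb2 ran from -0.42 to -0.29 and that of Mybl2 from -0.41 to -0.27. That of Top2a ran from -0.51 to -0.20. The count at an unadjusted p under 0.05 also moved with a library left out, where fewer libraries set the spread. With 2 libraries a group the 95% intervals, which are not adjusted for the number of genes, were wide. Over the 40 genes the lowest bound of any interval was -0.84 and the highest 0.86. The smallest difference that the adjusted test could detect was not computed, and genes that did not pass may still differ. In bulk RNA, fewer dividing cells and less mitotic RNA per dividing cell cannot be told apart.

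**Figure D3:**
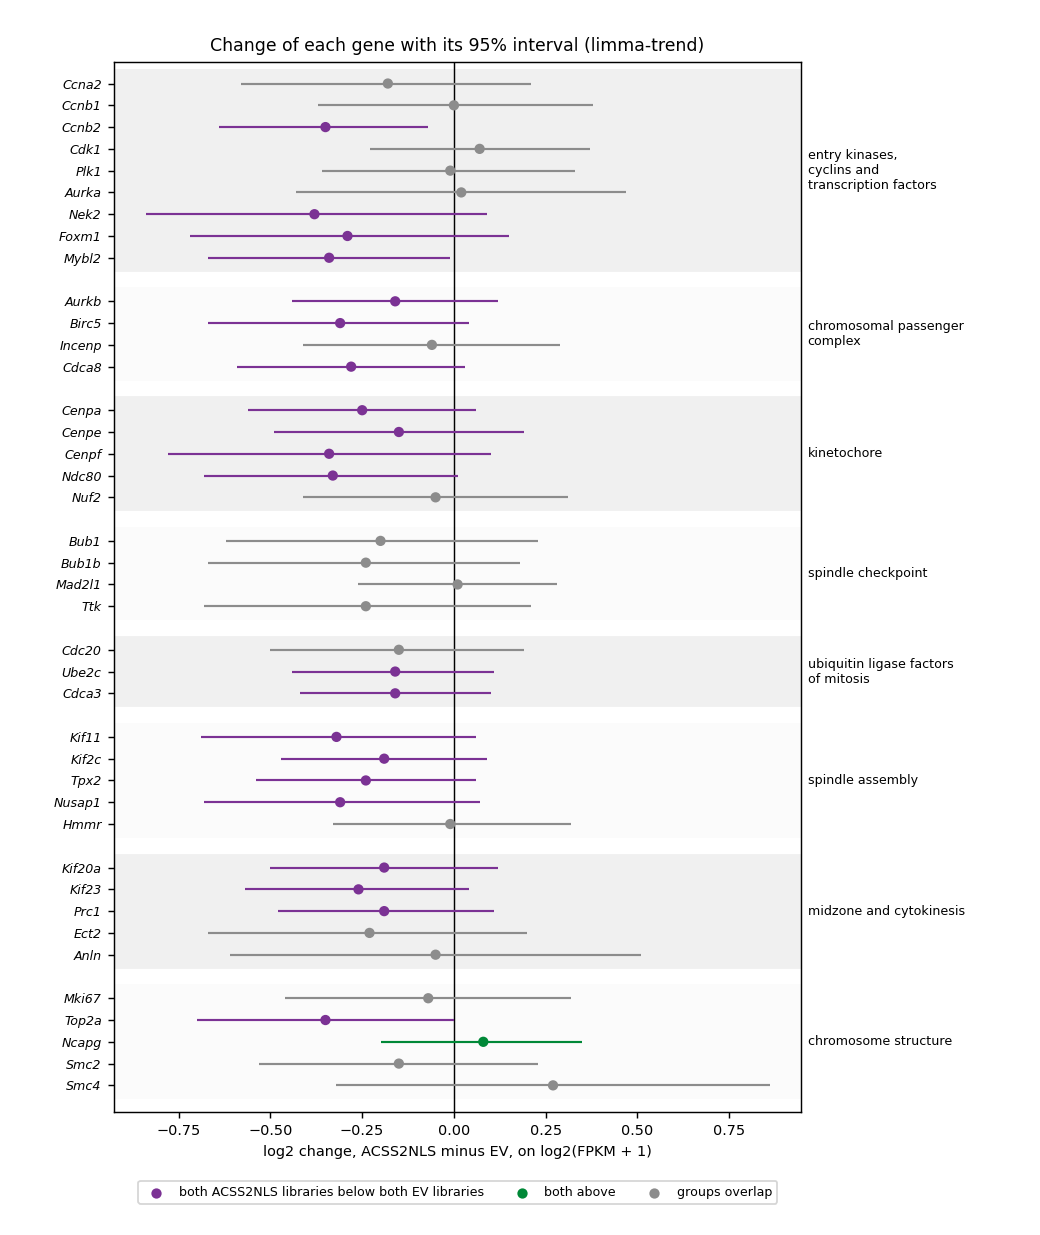
Log2 change of each gene (point) with its 95% interval from limma-trend (line), on log2(FPKM + 1); purple marks the 21 genes lower without overlap in ACSS2NLS, green the 1 gene higher without overlap, grey the rest. The intervals of 3 genes, Ccnb2, Mybl2 and Top2a, leave out 0.

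**Figure D4:**
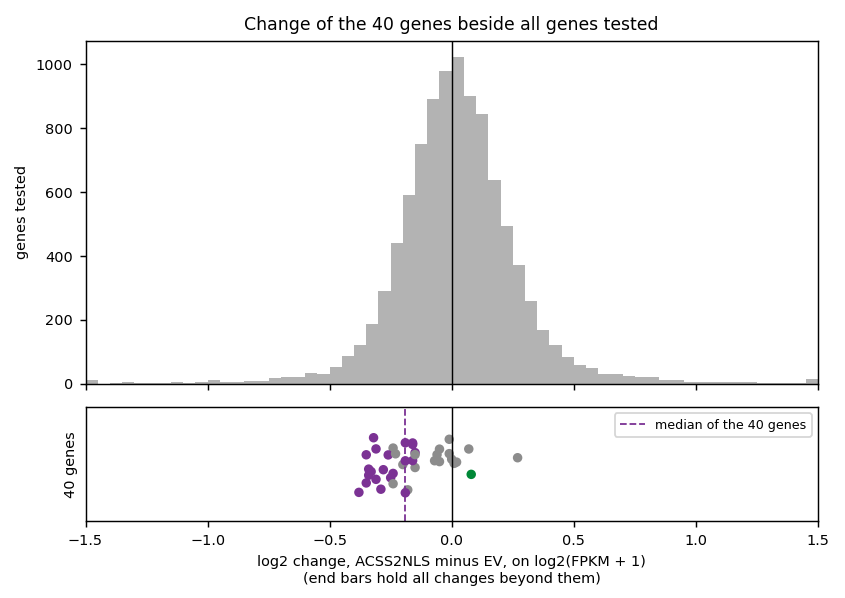
Log2 changes of all 9810 genes tested (upper panel, number of genes per bin of 0.05) and of the 40 genes (lower panel, colours as for the intervals, vertical scatter only to separate points). The 40 genes lie mostly left of 0, with their median (dashed line) at -0.19, against 0.02 over all genes.

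Among the genes that start mitosis, the cyclins and kinases gave unequal differences. Ccnb2 (mm10 chromosome 9, 70407689 to 70421554, minus strand) had 62.7 and 57.2 FPKM in EV against 47.0 and 46.2 FPKM in ACSS2NLS. The groups did not overlap, and the mean was 0.778 times that of EV (log2 change -0.35 ± 0.11, SE, n = 2 per group, limma adjusted p = 0.81). Ccnb1, the gene of the other B-type cyclin, overlapped between groups, with 8.36 and 9.25 FPKM in EV against 7.94 and 9.77 FPKM in ACSS2NLS (log2 change 0.00 ± 0.15). Both cyclin B genes have a copy annotated under their name elsewhere in the genome, Ccnb1-ps and Ccnb2-ps, with which reads could be shared. Copies under other names were not looked for. Ccna2, the cyclin A gene, was at 35.9, 33.2, 26.5 and 34.6 FPKM (here and below the 2 EV libraries, then the 2 ACSS2NLS libraries), so only ACSS2NLS replicate 1 was low. Its span shares 863 bases with Exosc9 on the opposite strand.

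The kinase genes at the centre of mitotic entry had log2 changes near 0, and their groups overlapped. Cdk1, the catalytic partner of the cyclins, was at 15.7, 16.9, 16.3 and 18 FPKM, with a log2 change of 0.07 ± 0.12 and a 95% interval from -0.23 to 0.37. Plk1, which acts from entry to cytokinesis, was at 21.2, 23.5, 20.1 and 24.3 FPKM (-0.01 ± 0.14, interval from -0.36 to 0.33). Aurka, which matures the spindle poles, was at 14.7, 13.2, 12 and 16.6 FPKM (0.02 ± 0.18, interval from -0.43 to 0.47). In Aurka the highest and the lowest value were both in ACSS2NLS. Nek2, a kinase that parts the centrosomes, differed from them in its values, at 17.0 and 16.7 FPKM in EV against 10.6 and 15.3 FPKM in ACSS2NLS. Its log2 change of -0.38 ± 0.18 was the lowest of the 40, but the ACSS2NLS libraries differed by 0.49, more than the groups did. The transcription factor genes Mybl2 and Foxm1, whose products switch on the G2/M genes with MuvB, were both lower without overlap. Mybl2 (mm10 chromosome 2, 163054635 to 163084687, plus strand) was at 8.75 and 7.89 FPKM in EV against 6.49 and 6.24 FPKM in ACSS2NLS (limma log2 change -0.34 ± 0.13 with an adjusted p of 0.81). Foxm1 was at 11.1, 11.4, 7.64 and 10.6 FPKM (-0.29 ± 0.17), with replicate 1 of ACSS2NLS well below replicate 2, and its span shares 377 bases with 4933413G19Rik on the same strand. Of the 9 genes of mitotic entry, 6 had a lower mean (46.8% of all genes did), 4 of them without overlap (18.1% of all genes were).

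The chromosomal passenger complex corrects faulty attachments and guides cytokinesis. All of its 4 genes had a lower mean in ACSS2NLS (46.8% of all genes did), 3 without overlap (18.1% of all genes were). Their median log2 change was -0.22. Birc5 was at 92.0 and 74.5 FPKM in EV against 67.8 and 65.0 FPKM in ACSS2NLS (-0.31 ± 0.14), and Cdca8, which encodes borealin, at 55.4, 48.8, 44.3 and 41 FPKM (-0.28 ± 0.12). The spread between the EV libraries of Birc5, 0.30 on the log2 scale, was about that of the difference. Aurkb, the kinase of the complex, was at 30.2 and 29.8 FPKM against 25.4 and 28.2 FPKM (-0.16 ± 0.11). Incenp, its scaffold, overlapped (28.4, 32.6, 26.7 and 31.9 FPKM).

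Kinetochore genes gave a like picture. All 5 had a lower mean (46.8% of all genes did), 4 without overlap (18.1% of all genes were), and the median log2 change was -0.25. Cenpa was at 103 and 115 FPKM in EV against 89.2 and 93.2 FPKM in ACSS2NLS (-0.25 ± 0.12). Ndc80, which binds microtubules, was at 17.5, 17.4, 15.2 and 12.3 FPKM (-0.33 ± 0.14). Nuf2, whose product forms a dimer with that of Ndc80, overlapped between groups at 13.6, 11.2, 12.6 and 11.3 FPKM (-0.05 ± 0.14); the difference between the 2 genes was not tested. Cenpf, a large protein of the outer kinetochore, was at 4.98, 4.87, 3.11 and 4.31 FPKM (-0.34 ± 0.18), and the motor gene Cenpe at 7.89, 7.08, 6.93 and 6.33 FPKM (-0.15 ± 0.13).

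The 4 spindle checkpoint genes all overlapped between groups, where 18.1% of all genes were lower and 19.3% higher without overlap. Of them, 3 had a lower mean (46.8% of all genes did), and their median log2 change was -0.22. Bub1b and Ttk, a checkpoint protein and the kinase that recruits the checkpoint, were low in ACSS2NLS replicate 1 alone. Bub1b was at 21.5, 19.9, 14.8 and 20.2 FPKM (-0.24 ± 0.17) and Ttk at 5.71, 5.15, 3.80 and 5.19 FPKM (-0.24 ± 0.18). Bub1 was at 12.7, 9.92, 8.82 and 10.6 FPKM (-0.20 ± 0.17), with the highest value in EV replicate 1 and the lowest in ACSS2NLS replicate 1. Mad2l1, the inhibitor of CDC20, was the flattest of these, from 22.1 to 23.3 FPKM in the 4 libraries (log2 change 0.01 ± 0.11). Among the genes of protein destruction, Ube2c was at 65.7 and 64.6 FPKM against 56.1 and 60.0 FPKM and Cdca3 at 28.9 and 29.6 FPKM against 26.5 and 25.6 FPKM. Both had a log2 change of -0.16 ± 0.11 and were lower with no overlap (18.1% of all genes were). Cdc20 (33.5, 36.4, 28.3 and 34.6 FPKM) overlapped but had a similar log2 change of -0.15 ± 0.14. Cdc20 shares 52 bases of its span with Elovl1, and Nusap1 shares 208 with Oip5, in both cases on opposite strands.

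Spindle assembly genes were lower in mean in 5 of 5 cases, 4 without overlap, against 46.8% and 18.1% of all genes. Their median log2 change was -0.24. Kif11, the motor that pushes the poles apart, was at 23.6 and 21.0 FPKM in EV against 15.8 and 19.7 FPKM in ACSS2NLS (-0.32 ± 0.15). Nusap1, which bundles microtubules, was at 27.8, 22.6, 21.6 and 18.6 FPKM (-0.31 ± 0.15), and Tpx2, the activator of Aurora A, at 21.8, 19.8, 16.7 and 18.2 FPKM (-0.24 ± 0.12). The microtubule-depolymerising motor gene Kif2c was close within groups, at 14.5 and 14.1 FPKM against 12.5 and 12.3 FPKM (-0.19 ± 0.11). Hmmr, which encodes a spindle pole protein, was at 10.8, 9.59, 9.65 and 10.6 FPKM with overlapping groups (-0.01 ± 0.13).

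For the genes of the spindle midzone and cytokinesis, 5 of 5 had a lower mean, against 46.8% of all genes. ACSS2NLS replicate 1 was the lowest library in every one, against 31.7% of all genes. Kif23, a motor of the central spindle, was at 11.5 and 12.3 FPKM in EV against 9.38 and 10.1 FPKM in ACSS2NLS (-0.26 ± 0.12). Kif20a, a motor that carries regulators to the midzone, was at 23.6, 22.9, 18.8 and 21.9 FPKM, and Prc1, which bundles its microtubules, at 20.1, 17.8, 16.3 and 16.7 FPKM. In both the groups did not overlap, with a log2 change of -0.19 ± 0.12. Kif20a shares 1595 bases of its span with Cdc23 on the opposite strand. Ect2, which places the contractile ring, was at 9.08, 7.53, 6.05 and 7.82 FPKM (-0.23 ± 0.17). Anln, which scaffolds the ring, was at 2.06, 2.51, 1.65 and 2.77 FPKM (-0.05 ± 0.22). In both, the groups overlapped.

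Genes of chromosome structure had differences of both signs. Top2a, which untangles sister chromatids (mm10 chromosome 11, 98992947 to 99024189, minus strand), was at 47.3 and 47.7 FPKM in EV against 33.1 and 41.3 FPKM in ACSS2NLS (limma log2 change -0.35 ± 0.14 with an adjusted p of 0.81), so the EV libraries were close together and the ACSS2NLS libraries differed by 0.31. Mki67, at 11.7, 11.2, 9.5 and 12.4 FPKM, overlapped: its highest and its lowest value were both in ACSS2NLS (-0.07 ± 0.16). The condensin genes had differences of either sign. Ncapg was the single gene with both ACSS2NLS libraries above both EV libraries, at 16.3, 15.6, 16.6 and 17.1 FPKM (0.08 ± 0.11). Smc4 had the highest log2 change of the 40, 0.27 ± 0.24, with ACSS2NLS replicate 1 at 64.8 FPKM against 45.9, 39.4 and 40.6 FPKM in the others. Without that library its log2 change was -0.06. The Smc4 gene also hosts Mir15b and Mir16-2, both listed at 0. Smc2, its partner in condensin, was at 20.5, 16.1, 17.1 and 15.5 FPKM, with EV replicate 1 above the rest (-0.15 ± 0.15). The span of Ncapg shares 3364 bases with Lcorl on the opposite strand.

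The 2 ACSS2NLS libraries differed from each other by about as much as the groups did. For the 40 genes the median absolute log2 difference was 0.21 between the ACSS2NLS libraries, 0.13 between the EV libraries and 0.19 between the groups. Over all genes tested these medians were 0.20, 0.15 and 0.13, so the spread between replicates was not particular to the 40 genes. The median between the groups was larger in the 40 genes, at 0.19 against 0.13. The value between groups compares means of 2 libraries, which tend to vary less than the single libraries compared within a group. In 18 of the 40 genes the groups differed by more than either pair of replicates, a count for which no share over all genes was computed. ACSS2NLS replicate 1 was the lowest of the 4 libraries in 24 of the 40 genes, against 31.7% of all genes, and EV replicate 1 was the highest in 24, against 25.2%. Relative to each gene's mean on the log2 scale, the median deviation in EV was 0.138 for replicate 1 and 0.066 for replicate 2, while in ACSS2NLS it was -0.152 for replicate 1 and -0.007 for replicate 2. When ACSS2NLS replicate 1 was left out, the median log2 change of the 40 genes was -0.10, with 30 lower in mean (against 43.9% of all genes). Leaving out each library in turn, 26 genes were lower every time, 2 (Cdk1 and Ncapg) were higher every time and 12 turned direction at least once, Ccnb1, Plk1, Aurka and Mki67 among them. Of the 28 that kept their direction, 19 had a log2 change that moved by over 1.5 times with a library left out, and 9 did not: Ccnb2, Mybl2, Cdca8, Cenpa, Ube2c, Cdca3, Kif2c, Tpx2 and Kif23. No share over all genes was computed for these counts of direction and size, so they have no background to be read against. Without ACSS2NLS replicate 1 the log2 change was -0.13 for Nek2, -0.07 for Foxm1, -0.16 for Cenpf, -0.16 for Kif11 and -0.20 for Top2a. Without EV replicate 1 it was -0.16 for both Birc5 and Nusap1. Without ACSS2NLS replicate 2, 33 genes were lower than both EV libraries in the remaining one, against 39.4% of all genes.

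**Figure D5:**
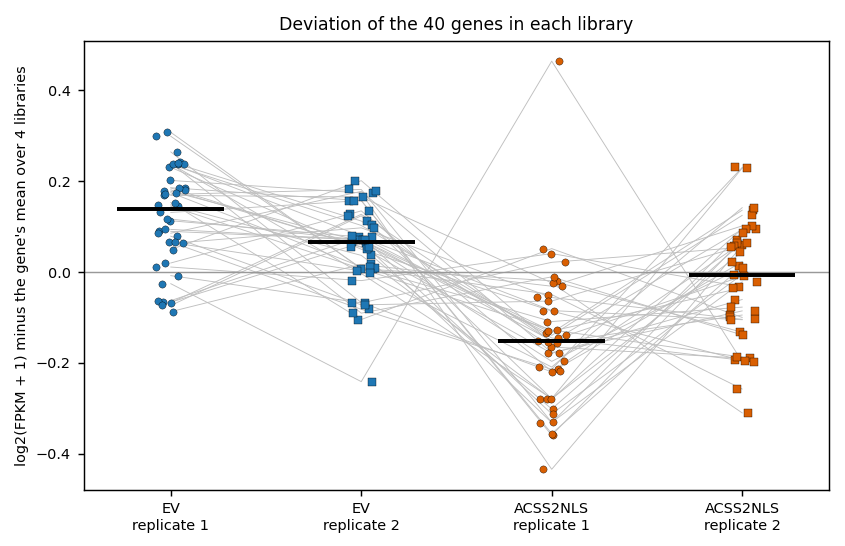
Deviation of each of the 40 genes from its own mean over the 4 libraries, on log2(FPKM + 1); thin lines join the values of a gene, thick bars are medians (0.138, 0.066, -0.152 and -0.007 from left to right). ACSS2NLS replicate 1 sits lowest, with Smc4 as the point far above the others.

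Other genes of mitosis, outside the 40, also had a lower mean more often than not. Of 111 such genes 109 were tested, with 76 lower and 33 higher in mean, 40 lower and 10 higher without overlap, and a median log2 change of -0.10; 0 passed the test, while 10 were lower and 1 higher at an unadjusted p under 0.05. Over all genes, to be read beside these counts and those of the lists below, 46.8% had a lower mean, 18.1% were lower and 19.3% higher without overlap, and 2.87% were lower and 3.1% higher at that p. Spindle and cytokinesis genes had the lowest median of these lists, -0.23, with 22 of 26 lower in mean and 14 without overlap. Racgap1, the partner of Kif23 in the central spindle, was at 42.5 and 41 FPKM in EV against 27.5 and 32.5 FPKM in ACSS2NLS (limma log2 change -0.47 ± 0.13 with an adjusted p of 0.81). Tacc3 (39.1, 34.6, 27.4 and 27.5 FPKM; -0.41 ± 0.12) and Cep55, a gene of the final cut between daughter cells (-0.37 ± 0.12), did not overlap either. Among other condensin, cohesin and separase genes 14 of 19 were lower in mean (median -0.12). The 3 with the smallest p were Cdca5 (-0.41 ± 0.14), Ncaph2 (-0.29 ± 0.10) and Ncaph (-0.36 ± 0.13). The last 2 encode condensin subunits, as do Ncapg, Smc2 and Smc4.

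The remaining kinetochore and checkpoint genes had a median log2 change of -0.06, and 22 of 34 had a lower mean. Kntc1, Cenpt and Spc24 had changes of -0.45 ± 0.19, -0.29 ± 0.14 and -0.25 ± 0.12. Other regulators of entry and exit had 18 of 30 lower and a median of -0.06. Within them Anapc5 (-0.34 ± 0.12) and Melk (-0.38 ± 0.14) were lower, whereas Anapc10, also a subunit of the anaphase-promoting complex, was higher at 2.69, 2.56, 3.72 and 3.69 FPKM (0.38 ± 0.14). None of these passed the test.

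Earlier phases of the cycle were described from lists of the same kind. DNA replication and S phase genes had 40 of 58 lower in mean, 21 lower and 6 higher without overlap, and a median log2 change of -0.08. Pold1 (-0.35 ± 0.10) and Chaf1b (-0.33 ± 0.11) were lower in both ACSS2NLS libraries, and Hells, a chromatin remodeller, was higher in both (12.5, 9.66, 16.5 and 15 FPKM; 0.48 ± 0.16). The 7 tested genes of a list of G1 cyclins and kinases, which also holds Cdk7 and Ccnh, had a median of 0.03. Ccnd3, cyclin D3, was at 64.6, 62.0, 52.5 and 50.5 FPKM (-0.29 ± 0.11). Cdk7 had 0.21 ± 0.16 and Ccnh 0.12 ± 0.14. Genes that restrain the cycle formed the last list. It holds CDK inhibitors and pocket protein genes, and also E2f4 and Btg1. Of its 12 tested genes 10 had a lower mean (median -0.16). Cdkn1a, which encodes the inhibitor p21, stood at 30.2 and 18.5 FPKM in EV against 10.4 and 13.7 FPKM in ACSS2NLS (limma log2 change -0.93 ± 0.26 with an adjusted p of 0.81). Its groups did not overlap, and the EV libraries differed from each other as well. E2f4 and Btg1 had log2 changes of -0.22 ± 0.11 and -0.50 ± 0.26. None of these passed, and no difference between these lists and the 40 genes was tested.

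All libraries held T cell RNA: the 8 T cell markers had a summed level of 1640 to 2260 FPKM, with Cd3g and Cd3e the most abundant. The sum includes Cd8a and Cd8b1 but also genes shared with other T cells, so it does not by itself show the CD8+ label. That sum was itself unequal, at 2260 and 1870 FPKM in EV against 2100 and 1640 FPKM in ACSS2NLS. As a percentage of it, the sum of the 40 genes was 46.3% and 53.5% in EV and 41.8% and 56.2% in ACSS2NLS, so on this scale the groups overlapped. RNA of other cells varied between libraries, most in ACSS2NLS replicate 2. The sum of 10 melanoma markers, led by Dct and Pmel, was 5.63 and 39.3 FPKM in EV against 12 and 140 FPKM in ACSS2NLS, and that of 15 myeloid markers, led by Lyz2, was 60.0, 399, 146 and 618 FPKM. The myeloid markers did not all follow this sum: Cd14 was at 5.9 and 29.1 FPKM in EV against 3.09 and 5.04 FPKM in ACSS2NLS, and S100a8 at 3.21 and 24.4 FPKM against 0.053 and 0.802 FPKM. These and S100a9, 3 of the 15 myeloid markers (20%), were lower without overlap in ACSS2NLS, against 18.1% of all genes. None of the 3 passed the test (limma adjusted p = 0.81 for each). All 6 melanoma markers above 1 FPKM in mean were highest in ACSS2NLS replicate 2. Tumour cells divide too, and the part of tumour and myeloid RNA in the level of the mitotic genes was not tested; within ACSS2NLS, 27 of the 40 genes were higher in replicate 2, against 57.5% of all genes. Within EV, where replicate 2 also had more melanoma and myeloid RNA, 11 of the 40 were higher in replicate 2, against 50.8% of all genes. B cell, CD4 and regulatory T cell, NK, stromal and endothelial, and red blood cell markers summed to at most 3.15, 10.7, 3.24, 16.9 and 16.3 FPKM in any library. Of the defining markers, Pax5 was at 0 in 3 libraries, Col3a1 and Pdgfrb in EV replicate 1, S100a9 in ACSS2NLS replicate 1 and Cdh5 in ACSS2NLS replicate 2.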

How the data were processed

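Libraries were made from CD8+ T cell RNA by SMART-Seq v4 for low input, per the labels' protocols. STAR 2.5.3a, HOMER and mm10 are named, per the submitters' processing notes. Values were deposited as FPKM: per the file headers, HOMER counted tags on the gene's strand over exons, keeping 1 transcript per gene. Those sources do not state that strand was preserved, and overlapping genes may therefore share reads. Columns named Acss2WT and Acss2OE were read as EV and ACSS2NLS by name and number, with Acss2 as the check; the header names 8 tag directories, the table has 4 columns.

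Genes averaging 1 FPKM or more were tested on log2(FPKM + 1) with limma-trend (limma 3.58.1, R 4.3.3), two-sided, adjusted over 9810 genes. Total tags were read from the steps of low FPKM values (100% whole within 0.1, genes of 500 to 2000 bases). Lists are described by counts and medians. The text names all 40 genes, Acss2 and 3 or fewer genes per other list with the smallest unadjusted p. Of the markers it names the most abundant and those at 0. Acss2os, Cd14 and S100a8 were named after their values were seen. Members and lists were chosen with earlier results of these data known. The labels name no separate mice, and the p-values therefore cover the spread among these 4 libraries alone, which may be technical; an exact permutation test could not go below 0.333. The 11 alternatives are given at the end.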

Additional observations from a re-analysis of the deposited data

How the results depend on the processing

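The count of the 40 genes past the adjusted threshold was 0 under all 11 alternatives (pseudocounts of 0.1 and 0.5 FPKM, no filter, a mean of at least 5 FPKM, quantile normalization, centring on the library median, each library left out, and the replicate block). With a library left out, genes with a lower mean numbered 30 to 35 (against 43.9% to 53.3% of all genes). Those lower without overlap numbered 23 to 33 (against 28.6% to 39.4% of all genes), 33 being without ACSS2NLS replicate 2. The median log2 change ran from -0.24 to -0.10, the latter without ACSS2NLS replicate 1. In these fits an arm of 1 library is assumed to vary like the other group. Of all genes, 2 passed upward whichever library was left out, and 0 to 9 downward, 9 without EV replicate 1; with no filter 1 passed upward. With the replicate block 229 genes passed upward and 172 downward, none of the 40 among them. In that fit 9 of the 40 were lower at an unadjusted limma p under 0.05, as were 6.42% of all genes. Their smallest limma adjusted p was 0.12, against 0.742 to 0.865 under the other alternatives that kept all 4 libraries. Deviations of same-numbered libraries correlated at 0.58 over all genes and at 0.36 over the 40 genes, and nothing in the labels pairs them. With a library left out, the log2 change ranged from -0.30 to 0.20 for Anln, -0.21 to 0.24 for Aurka, -0.37 to 0.00 for Ccna2, -0.13 to 0.14 for Ccnb1, -0.08 to 0.07 for Hmmr, -0.18 to 0.06 for Incenp, -0.03 to 0.04 for Mad2l1, -0.24 to 0.11 for Mki67, -0.18 to 0.08 for Nuf2, -0.15 to 0.12 for Plk1, -0.31 to 0.02 for Smc2 and -0.06 to 0.60 for Smc4. Under quantile normalization Ccnb1 had -0.01 and Plk1 0.02; under median centring Aurka had -0.01, Ccnb1 -0.03 and Mad2l1 -0.02. The cause of these turns was not tested.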
